A study of Rattus norvegicus with 34 samples.

Results

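The late course of exposed cells was read from 6 of the 34 arrays of the series, 3 arrays of monuron-labelled NRK-52E cells at 72 h and 3 at 24 h. All arrays with the monuron label, the NRK-52E cell line and either time were taken, and no measured value was used to choose them. NRK-52E is a rat kidney epithelial line, labelled as proximal tubule cells of Osborne-Mendel genotype, which was grown to confluence in 6-well plates and then exposed in medium with 0.1% DMSO. Culture time without the compound was followed in 3 arrays at 72 h and 3 at 24 h of cells given 0.1% DMSO alone, and 3 monuron-labelled arrays at 6 h gave the earlier point. The sample labels name monuron, a phenylurea herbicide, whereas the protocol that accompanies the cell samples names chlorothalonil, a fungicide, at 1.1 µM. The compound and its concentration on the cells are therefore uncertain, and the groups are called monuron cells and DMSO cells after their labels only. The labels call the replicates biological and the protocol speaks of 3 studies at each time, without saying that these were separate cultures, so the p-values measure the spread between these samples, which may be technical.

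Each array measured RNA abundance with 31099 probe sets, which were reduced to 14217 named genes with 1 probe set each. The values are the authors' log2 expression values, so a difference of 1 is a 2-fold change, and the precision is limited by 3 arrays a group. Tests were run on the 9042 genes that exceeded the array median on 3 or more of the 18 cell arrays. The array medians were 4.00 to 4.08 at 72 h and 4.12 to 4.16 at 24 h, and values below them are treated here as dim. "Rose" and "fell" are used for genes whose 72 h minus 24 h difference passed an adjusted p of 0.05 in limma's moderated test. Differences are given with their standard error. In RNA from whole wells, fewer cells of a kind and less RNA per cell cannot be told apart.

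The cell type label was checked against markers. Of 19 proximal tubule markers on the array, 3 lay above the median of every array at both times and 16 lay below it on all 6 arrays, among them Lrp2, Cubn, Slc34a1 and Hnf4a, which encode the endocytic receptors, the phosphate transporter and a transcription factor of that segment. All 12 markers of the distal nephron were below the median. Of 9 markers of kidney epithelium and renal transcription factors, 2 lay above the median of every array at both times, Krt8 among them. The other 7 lay below it on all 6 arrays, among them the epithelial cadherin Cdh1, Epcam and the kidney transcription factors Pax2 and Pax8. Of 12 fibroblast and mesenchyme markers, 7 lay above the median at both times. The arrays thus hold few defining transcripts of the labelled segment, and the cells are named here by their line.

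The control arrays at 72 h differed from each other. Over the tested genes, DMSO 72 h replicate 3 correlated with the 3 monuron 72 h arrays at r = 0.940 to 0.969, whereas DMSO 72 h replicate 1 did so at 0.883 to 0.925 and replicate 2 at 0.90 to 0.942. With the DMSO 24 h arrays, replicate 3 correlated at 0.97 to 0.972, replicate 2 at 0.973 to 0.976 and replicate 1 at 0.961 to 0.964. Replicates 1 and 3 lay further from the rest of their group (mean deviation 0.343 and 0.393) than replicate 2 (0.221). The part of replicate 3 in the comparisons with DMSO was not tested. Counts and differences set against DMSO are given with and without replicate 3, or as the values of the single arrays. This choice was made after the values were seen. The comparison of 72 h with 24 h in monuron cells uses no DMSO array.

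The lists described first belong to the integrated stress response. In this pathway, kinases that sense amino acid shortage, unfolded protein in the endoplasmic reticulum (ER), haem deficiency or viral RNA phosphorylate the translation factor eIF2alpha, which lowers general protein synthesis while the transcription factor ATF4 is translated more. ATF4 with its partners, such as CHOP, raises genes for amino acid synthesis and import, tRNA charging and, in some tissues, the hormone FGF21. The unfolded protein response shares 1 of these kinases and adds ATF6 and XBP1, which raise ER chaperones and the machinery that moves proteins from the ER to the Golgi. Proximal tubule cells are known to engage these pathways after nephrotoxic injury.

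Promoters of genes that moved are shown because short sequence motifs were searched in some of the groups described below. The sequences are RefSeq promoters on build GRCr8, 250 bases before to 50 bases after the gene start, 5′ to 3′ on the gene's strand, and capitals mark the motif. The first 3 hold a CARE motif (TGATGNAA, searched on both strands), the kind of composite site at which ATF4 and C/EBP factors bind.
Fgf21 (chr1:105221327-105221626, minus strand): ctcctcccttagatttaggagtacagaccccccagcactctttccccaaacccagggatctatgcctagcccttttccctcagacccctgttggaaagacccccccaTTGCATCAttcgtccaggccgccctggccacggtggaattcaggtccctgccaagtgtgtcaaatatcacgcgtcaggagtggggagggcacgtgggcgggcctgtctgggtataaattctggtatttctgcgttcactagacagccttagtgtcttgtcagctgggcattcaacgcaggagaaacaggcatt
Trib3 (chr3:161275484-161275783, minus strand): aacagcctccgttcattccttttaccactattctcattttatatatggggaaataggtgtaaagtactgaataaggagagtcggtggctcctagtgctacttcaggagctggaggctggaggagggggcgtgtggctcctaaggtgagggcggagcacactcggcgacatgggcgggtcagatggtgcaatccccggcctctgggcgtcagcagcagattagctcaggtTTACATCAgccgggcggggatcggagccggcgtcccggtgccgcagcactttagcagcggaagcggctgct
Mars1 (chr7:65023704-65024003, minus strand): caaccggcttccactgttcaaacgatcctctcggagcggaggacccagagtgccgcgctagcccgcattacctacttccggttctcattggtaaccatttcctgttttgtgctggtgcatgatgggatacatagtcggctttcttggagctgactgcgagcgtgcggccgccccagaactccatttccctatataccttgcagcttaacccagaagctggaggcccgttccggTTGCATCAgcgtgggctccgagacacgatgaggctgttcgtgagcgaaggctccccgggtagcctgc
The next 2, from ER chaperone genes, hold an ER stress response element (ERSE, searched on both strands, which begins with CCAAT), the element of ATF6 with NF-Y.
Ero1b (chr17:92941432-92941731, plus strand): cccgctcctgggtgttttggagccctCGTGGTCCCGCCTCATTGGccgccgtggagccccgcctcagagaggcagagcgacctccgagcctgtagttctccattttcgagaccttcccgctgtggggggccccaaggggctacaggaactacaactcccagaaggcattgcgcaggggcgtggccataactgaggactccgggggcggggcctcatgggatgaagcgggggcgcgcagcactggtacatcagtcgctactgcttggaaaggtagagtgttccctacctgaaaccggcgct
Dnajc3 (chr15:102432417-102432716, plus strand): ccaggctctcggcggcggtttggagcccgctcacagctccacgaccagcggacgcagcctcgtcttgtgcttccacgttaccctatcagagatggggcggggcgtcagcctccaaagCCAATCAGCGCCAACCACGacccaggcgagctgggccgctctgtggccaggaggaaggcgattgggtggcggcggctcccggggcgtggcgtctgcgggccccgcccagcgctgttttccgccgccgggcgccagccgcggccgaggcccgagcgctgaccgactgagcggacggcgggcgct
The last 2, from mitotic genes, hold a cell cycle homology region (CHR, TTTGAA, searched on both strands), where the DREAM and B-MYB complexes bind.
Plk1 (chr1:186147408-186147707, plus strand): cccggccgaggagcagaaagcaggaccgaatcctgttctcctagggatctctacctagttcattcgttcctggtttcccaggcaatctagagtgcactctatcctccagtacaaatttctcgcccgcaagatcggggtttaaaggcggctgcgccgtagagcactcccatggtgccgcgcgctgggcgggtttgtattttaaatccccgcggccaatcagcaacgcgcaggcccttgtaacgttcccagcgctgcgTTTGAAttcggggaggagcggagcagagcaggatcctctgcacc
Cenpf (chr13:103760837-103761136, minus strand): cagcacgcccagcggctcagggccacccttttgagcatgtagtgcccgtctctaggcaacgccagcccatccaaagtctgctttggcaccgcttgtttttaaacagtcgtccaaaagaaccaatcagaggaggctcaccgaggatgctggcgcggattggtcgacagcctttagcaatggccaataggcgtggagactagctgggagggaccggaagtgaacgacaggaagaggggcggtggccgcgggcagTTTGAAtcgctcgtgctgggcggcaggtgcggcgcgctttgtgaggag

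The CARE motif was found in 1048 of 27457 rat promoters (3.82%) and in 148 of the 7669 tested genes with a promoter in the table (1.93%). Of the cytosolic aminoacyl-tRNA synthetase promoters, 7 of 19 held it (36.8%), and of the stress regulator promoters 5 of 19 (26.3%), those of Fgf21, Trib3, Nupr1, Jdp2 and Chac1. Only 1 of 14 promoters of the amino acid synthesis list had these letters (7.14%), and none of the 9 members that rose did. The ER stress element was in 21 promoters (0.0765%), and 8 of 24 promoters of the ER chaperone list held it (33.3%). Of mitotic gene promoters, 27 of 40 held the CHR (67.5%), against 18.1% of all promoters, and 31 of 40 held CCAAT (77.5%), against 37.7%. The E-box (CACGTG) was in 2 of 13 promoters of the circadian clock list (15.4%), against 10.2% of tested genes and 6.65% of all promoters. None of the 8 clock members that rose held it. The remaining lists were not searched. These are matches of letters and not measured sites.

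Between 24 h and 72 h, 5895 of 9042 tested genes changed in monuron cells (65.2%), with 2799 higher at 72 h (31.0%) and 3096 lower (34.2%). At least 2-fold changes numbered 1414 (15.6%), of which 464 were rises (5.13%) and 950 falls (10.5%). The values of the 3 arrays at 72 h lay wholly above or wholly below the 3 at 24 h for 6361 genes (70.3%). The median difference over all tested genes was -0.03. In DMSO cells the same interval changed 2526 genes (27.9%), with 1046 higher (11.6%) and 1480 lower (16.4%) at 72 h, and 387 changed at least 2-fold (4.28%). Without DMSO 72 h replicate 3 it changed 3403 (37.6%), 1299 upward (14.4%) and 2104 downward (23.3%). The number of changed genes was thus larger in monuron cells in either case, and since most genes moved, a list is read here against 31.0% and 34.2%.

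**Figure D1:**
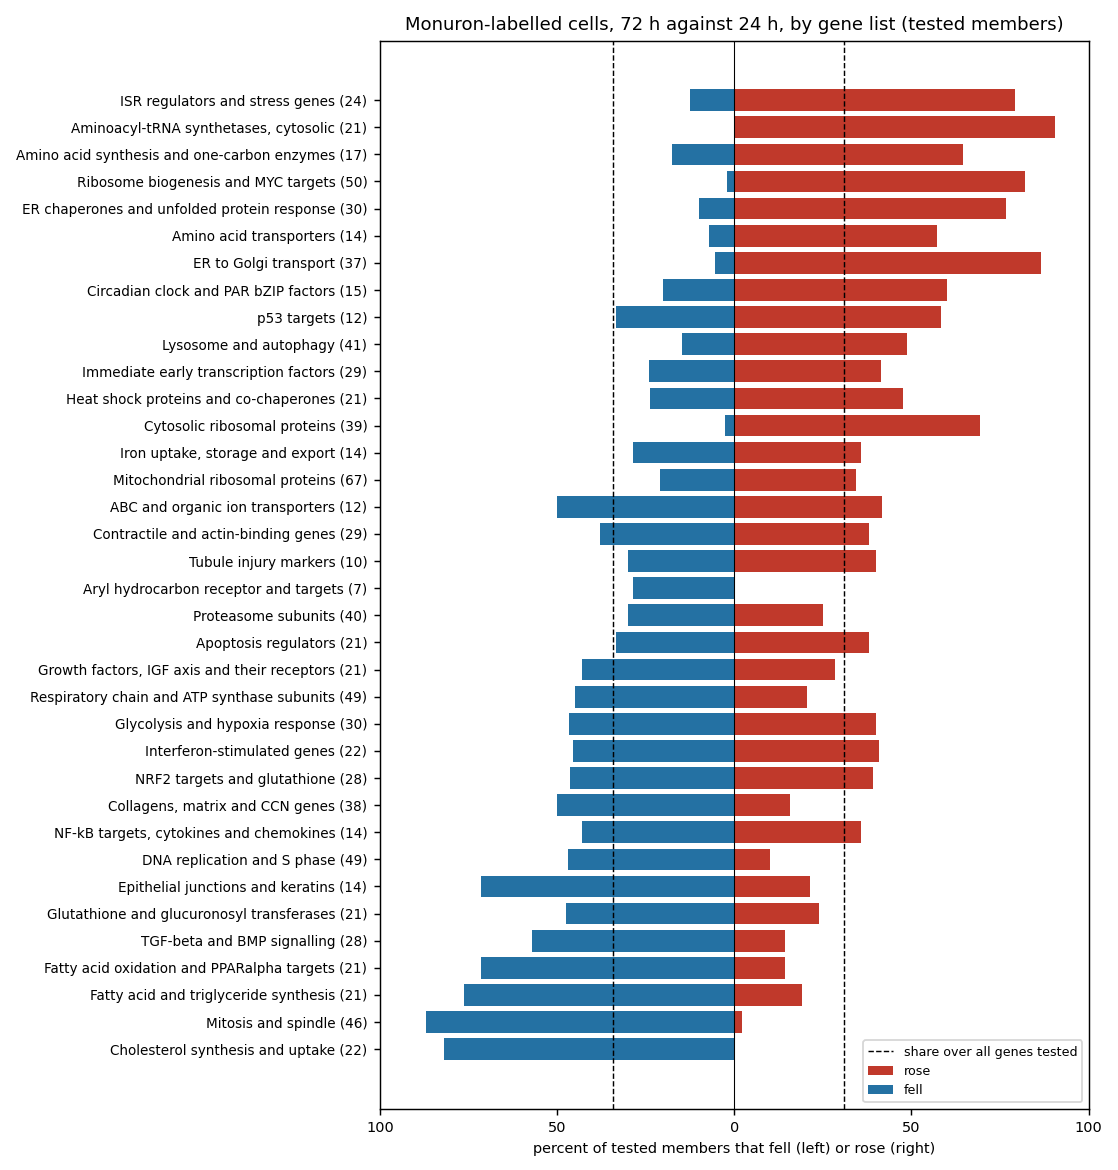
Percent of the tested members of each gene list (number in brackets) that rose (red, right) or fell (blue, left) at 72 h against 24 h in monuron cells, ordered by the median difference of the list. Dashed lines mark 31.0% and 34.2%, the shares over all tested genes, and the stress response, tRNA synthetase, secretory and ribosome biogenesis lists lie well to the right while mitosis and lipid lists lie to the left.

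Regulators and stress genes of the integrated stress response rose between 24 h and 72 h. Of 24 tested members, 19 rose and 3 fell, with a median difference of 0.82 against -0.03 over all genes, and 10 rose at least 2-fold. Fgf21, which encodes a stress hormone acting on metabolism, was dim at 24 h and bright at 72 h. It measured 9.02, 9.21 and 10.09 at 72 h, against 3.51, 3.74 and 3.44 at 24 h, and 2.28, 2.26 and 2.25 at 6 h. With the dim values set to the array median the difference was 5.31, and as measured it was 5.88 ± 0.25 (adjusted p = 4.71e-08). All 3 late arrays lay above all the earlier ones, and replicate 3 was the highest. Fgf21 exceeded the array median on the monuron 72 h arrays alone, so it met the filter for testing through them.

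Ppp1r15a encodes the phosphatase subunit that reverses eIF2alpha phosphorylation. It measured 9.95, 10.12 and 11.02 at 72 h, against 8.0, 7.87 and 7.94 at 24 h, a 5.36-fold rise (2.42 ± 0.22, adjusted p = 4.94e-06). Ddit3, which encodes CHOP, measured 12.58, 12.75 and 13.13 at 72 h, against 11.10, 11.02 and 11.04 at 24 h, a 3.4-fold rise (1.77 ± 0.13). Atf4 itself was already near the top of the scale and measured 14.49, 14.40 and 14.54 at 72 h, against 13.61, 13.54 and 13.65 at 24 h, with little spread and a 1.84-fold rise (0.88 ± 0.06, adjusted p = 5.86e-07). In none of these genes did the groups overlap, and for Ppp1r15a and Ddit3 replicate 3 at 72 h was again the highest array.

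Among other members, the translation repressor gene Eif4ebp1 rose by 1.05 ± 0.07, the growth arrest gene Gadd45a by 1.46 ± 0.10, the tRNA exporter gene Xpot by 1.33 and the lipoprotein receptor gene Vldlr by 1.38. Stc2, a secreted glycoprotein gene, measured 4.89, 5.09 and 5.37 at 72 h, against 2.54, 2.51 and 2.65 at 24 h, so that only the late arrays lay above the array median, and its difference with dim values set to that median was 0.98. The pseudokinase gene Trib3 rose by 1.56 ± 0.24, Atf3 by 1.93 ± 0.30 and the glutathione-degrading enzyme gene Chac1 by 0.58 ± 0.17. In a fit that drew its spread from all 18 cell arrays, Trib3, Atf3 and Chac1 were not called. The members that fell were the eIF2alpha kinase gene Eif2ak4 (-1.25), the ubiquitin ligase gene Rnf122 (-0.77) and Ddit4, an inhibitor of mTORC1 (-0.70). Nfe2l1 and Atf5 did not pass the test, with differences of -0.11 and 0.11.

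**Figure D2:**
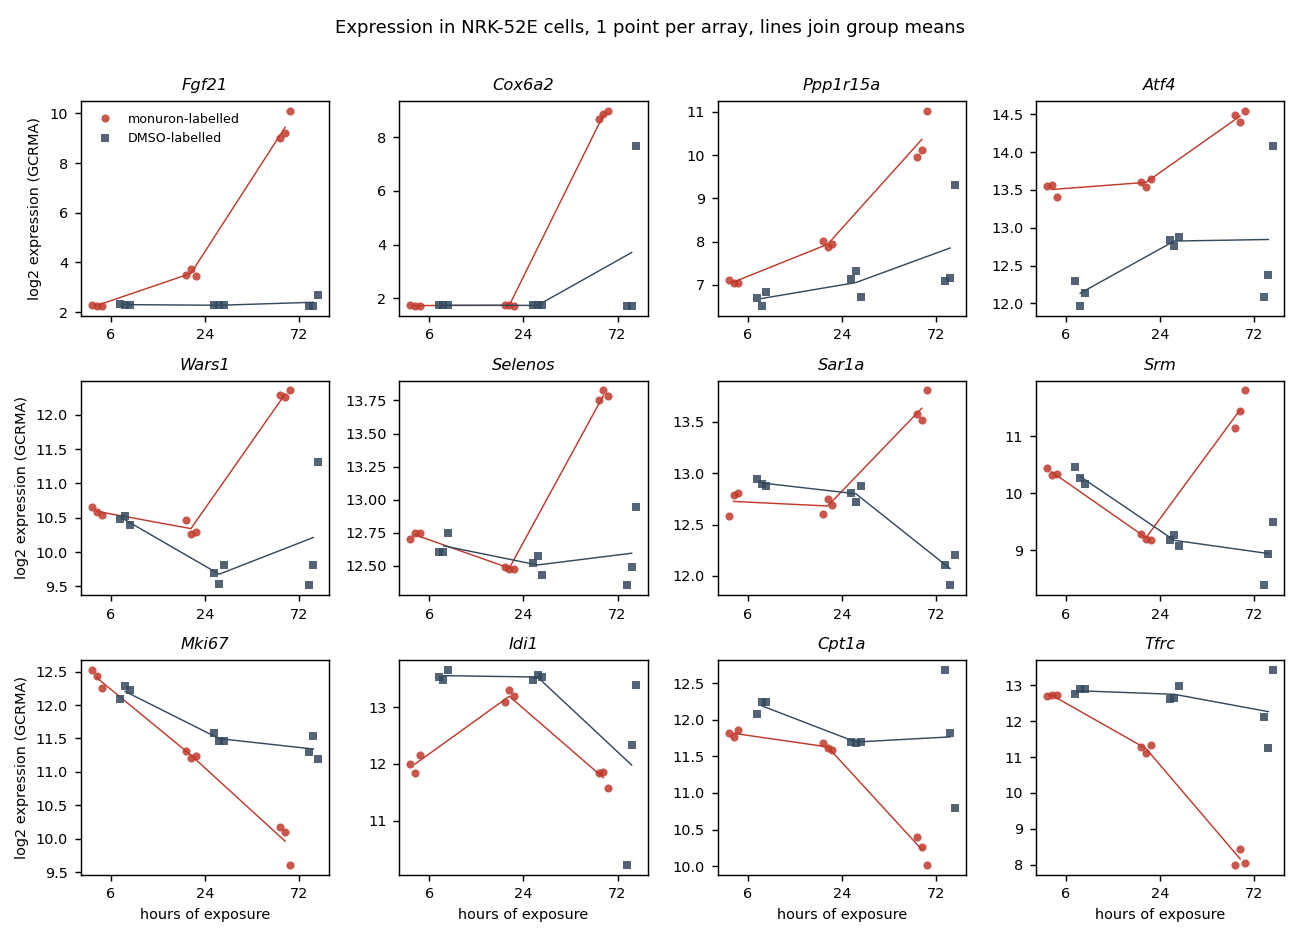
Log2 expression of 12 genes on each NRK-52E array at 6, 24 and 72 h (evenly spaced, not to scale), with monuron cells as red circles and DMSO cells as dark squares, and lines through group means. The 3 monuron arrays at 72 h lie apart from those at 24 h in each panel, and 1 DMSO array at 72 h, replicate 3, lies near the monuron arrays for Cox6a2 and Atf4 but not for Fgf21.

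Many genes that supply amino acids also rose. Of 17 tested enzymes of amino acid and one-carbon synthesis, 11 rose and 3 fell (median 0.70). Shmt2, the mitochondrial serine hydroxymethyltransferase gene, measured 12.13, 12.27 and 12.50 at 72 h, against 10.68, 10.62 and 10.52 at 24 h (1.70 ± 0.09, adjusted p = 2.36e-07). Asns, which encodes asparagine synthetase, measured 13.65, 13.84 and 13.86 at 72 h, against 12.64, 12.48 and 12.49 at 24 h (1.24 ± 0.07, adjusted p = 3.02e-07). The groups did not overlap for either. The one-carbon enzyme gene Mthfd1l rose by 1.36 ± 0.20, the cystathionine gamma-lyase gene Cth by 1.17 ± 0.08 and the proline pathway gene Aldh18a1 by 0.79. Mthfd2 rose by 1.04 ± 0.11, Phgdh, the first enzyme of serine synthesis, by 0.47 and the branched-chain aminotransferase gene Bcat1 by 2.18 ± 0.24, but these 3 were not called in the fit of all 18 cell arrays, where the list had 7 members that rose. Glul, the glutamine synthetase gene, fell (-1.19 ± 0.09), as did Psat1 of serine synthesis (-0.67) and the cytosolic Shmt1 (-0.40).

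Of 14 tested amino acid transporters, 8 rose and 1 fell (median 0.61). Slc3a2 encodes the heavy chain shared by several exchangers and measured 13.55, 13.64 and 13.82 at 72 h, against 12.38, 12.06 and 12.11 at 24 h (1.48 ± 0.10, adjusted p = 8.18e-07). Slc1a5, a glutamine and neutral amino acid transporter gene, measured 12.52, 12.49 and 12.80 at 72 h, against 11.27, 11.19 and 11.23 at 24 h (1.38 ± 0.09). The glycine transporter gene Slc6a9 had the largest rise of the list, 2.41 ± 0.31, and the cationic transporter gene Slc7a1 rose by 1.22 ± 0.11. Slc7a5, the leucine exchanger gene, rose by 0.78 and the cystine exchanger gene Slc7a11 by 1.03 ± 0.17, but neither was called in the fit of all 18 cell arrays, where 5 transporters rose. The taurine transporter gene Slc6a6 fell (-1.04).

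The enzymes that load amino acids onto tRNA rose almost as a block. Of 21 tested cytosolic aminoacyl-tRNA synthetases and their scaffold proteins, 19 rose and none fell, with a median of 0.74. In 20 the arrays at 72 h lay wholly above those at 24 h. Of all tested genes 33.3% did so, and 70.3% had no overlap in either direction. Wars1, for tryptophan, moved most and measured 12.28, 12.26 and 12.35 at 72 h, against 10.46, 10.27 and 10.29 at 24 h, a 3.88-fold rise (1.96 ± 0.07, adjusted p = 1.91e-08). The next largest were Gars1 for glycine (0.88 ± 0.07), Mars1 for methionine (0.88 ± 0.07), Eprs1 for glutamate and proline (0.86 ± 0.08) and the scaffold gene Aimp1 (0.86). The remaining rises lay between 0.28 for Rars1 and 0.81 for Farsb. Kars1 (0.08) and Farsa (0.12) did not pass the test. Apart from that of Wars1, the rises were below 2-fold.

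In DMSO cells fewer members of these 4 lists rose over the same interval, and the control arrays disagreed with each other. With all 3 DMSO 72 h arrays, 5 stress regulators rose and 1 fell, no synthesis enzyme rose and 3 fell, 1 transporter rose and 1 fell, and no tRNA synthetase was called. Without replicate 3, 6 stress regulators rose and 9 fell, 13 of 17 synthesis enzymes fell, 6 of 14 transporters fell and 13 of 21 tRNA synthetases fell. The mean level of the stress regulators was 10.84, 10.92 and 11.19 on the monuron 72 h arrays, against 10.02, 9.93 and 9.93 at 24 h. On the DMSO arrays it was 8.65, 8.93 and 10.26 at 72 h, against 9.04, 9.05 and 9.08 at 24 h. DMSO 72 h replicate 3 was thus the 1 control array on which this list stood above its 24 h level, although its Fgf21 value of 2.67 stayed dim.

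The change over time was set against that of DMSO cells by an interaction contrast, in which 3423 genes were called (37.9%), 1655 upward (18.3%) and 1768 downward (19.6%). Without DMSO 72 h replicate 3 there were 4411 (48.8%), 2320 upward (25.7%) and 2091 downward (23.1%). Of the stress regulators, 7 of 24 differed upward and 2 downward, against 15 and 2 without that array. Of the tRNA synthetases 13 of 21 differed upward, against 20 without it, and none downward. For the synthesis enzymes the counts were 5 of 17 upward, against 15 without it, and for the transporters 3 of 14, against 8. Fgf21 differed by 5.76 (adjusted p = 3.83e-08), and by 5.90 without that array. For Wars1 the difference was 1.42 (adjusted p = 0.0119), and 1.97 without it. Atf4 passed the test only without it, with 1.47 (adjusted p = 3.73e-07) against 0.86 with it (adjusted p = 0.143).

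**Figure D3:**
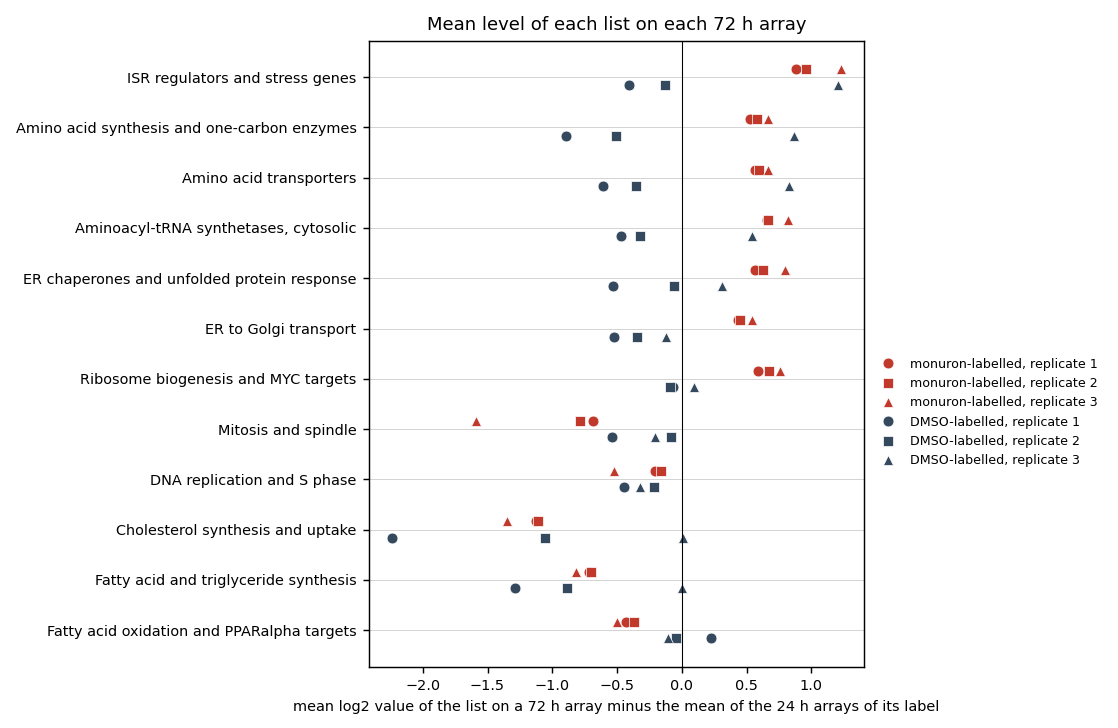
Mean log2 level of 12 gene lists on each 72 h array minus the mean of the 24 h arrays of the same label, with monuron cells in red above DMSO cells in dark blue and a marker shape for each replicate. The monuron arrays lie close together except replicate 3 for mitosis. DMSO replicate 3 (triangle) parts from the other DMSO arrays in the amino acid, tRNA synthetase, stress regulator and fatty acid synthesis lists. For cholesterol the DMSO arrays all lie apart from each other.

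Chaperones and quality control proteins of the ER also rose. Of 30 tested members, 23 rose and 3 fell, with a median of 0.68, and 12 rose at least 2-fold. Selenos, an ER membrane selenoprotein gene of the degradation complex, measured 13.75, 13.83 and 13.78 at 72 h, against 12.49, 12.48 and 12.48 at 24 h (1.31 ± 0.04, adjusted p = 1.54e-08), with a spread at 24 h of only hundredths of a log2 unit. Atf6, which encodes a sensor of the unfolded protein response, measured 12.67, 12.85 and 13.05 at 72 h, against 10.77, 10.89 and 10.77 at 24 h, a 4.13-fold rise (2.05 ± 0.09). Dnajb9, a co-chaperone gene, rose by 1.91 ± 0.13. Hspa5, the gene of the abundant chaperone BiP, lay at the upper end of the scale and measured 15.70, 15.69 and 15.76 at 72 h, against 15.18, 15.11 and 15.17 at 24 h (0.56 ± 0.04, adjusted p = 9.86e-07). The groups were separate for all 4 genes.

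The promoters of Ero1b and Dnajc3 shown above belong to members that rose, by 1.47 ± 0.20 for Ero1b, an ER oxidase gene, and by 1.04 ± 0.14 for Dnajc3, a co-chaperone and eIF2alpha kinase inhibitor gene. Of the 18 members that rose and have a promoter in the table, 7 held the ER stress element (38.9%). The chaperone gene Hyou1 rose by 1.39 ± 0.19, Sdf2l1 by 1.45 ± 0.16, the degradation gene Herpud1 by 1.29 ± 0.17 and the transcription factor gene Xbp1 by 0.76 ± 0.07. Some central ER proteins changed little. Calr for calreticulin (0.00), Pdia4 (0.02) and Pdia3 (0.11), both protein disulphide isomerases, did not pass the test, and the members that fell were the reductase gene Dnajc10 (-0.98 ± 0.07), Edem2 (-0.65) and Edem1 (-0.54), which act on glycoproteins bound for degradation. In DMSO cells 2 members rose and 3 fell, against 3 and 12 without replicate 3. The change over time differed upward in 18 of 30 members and downward in 1, against 22 and 1 without that array.

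Vesicle transport from the ER to the Golgi moved in opposite directions in monuron and DMSO cells. In monuron cells 32 of 37 tested members rose and 2 fell (median 0.52). In DMSO cells none rose and 21 fell (median -0.27), with 25 falls without replicate 3. There were 17 members that rose in monuron cells and fell in DMSO cells, and 21 without that array, whereas 159 of all 9042 genes did so with all arrays and 485 without it. The interaction was called upward in 31 of 37 members and downward in none, and in 34 without that array. The mean level of the list was 12.16, 12.18 and 12.27 on the monuron 72 h arrays, against 11.72, 11.73 and 11.74 at 24 h. On the DMSO arrays it was 11.18, 11.36 and 11.58 at 72 h, against 11.68, 11.72 and 11.71 at 24 h, so that here all 3 control arrays, replicate 3 included, lay below their 24 h level.

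Sar1a encodes the GTPase that starts the COPII coat of vesicles leaving the ER. In monuron cells it measured 13.58, 13.51 and 13.80 at 72 h, against 12.60, 12.75 and 12.69 at 24 h (0.95 ± 0.08, adjusted p = 4.51e-06). In DMSO cells it measured 12.11, 11.91 and 12.20 at 72 h, against 12.81, 12.72 and 12.87 at 24 h (difference -0.73, adjusted p = 2.83e-05). The groups were apart in both labels, in opposite directions, and the change over time differed by 1.68 (adjusted p = 1.41e-06), or 1.74 without DMSO 72 h replicate 3. Sec23b, of the inner COPII coat, had the largest rise of the list and measured 12.94, 12.91 and 13.06 at 72 h, against 11.65, 11.75 and 11.71 at 24 h (1.27 ± 0.06, adjusted p = 1.57e-07). Sec13, of the outer coat, measured 13.23, 13.20 and 13.07 at 72 h, against 12.74, 12.69 and 12.80 at 24 h (0.42 ± 0.06), and in DMSO cells 11.89, 12.39 and 12.34 at 72 h, against 12.96, 12.96 and 12.97 at 24 h.

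The COPII scaffold gene Sec16a rose by 0.98 ± 0.08 and the cargo adaptor gene Sec24d by 0.69 ± 0.05. Spcs2, of the signal peptidase, rose by 0.84, the cargo receptor gene Lman1 by 0.75 and Ssr1, of the translocon, by 0.62 ± 0.14, a call lost with the mean of its probe sets. Members of the COPI coat, which returns proteins to the ER, moved less, with rises of 0.27 for Copa, 0.52 for Copb1 and 0.68 for Arcn1. Golt1b, a Golgi vesicle transport gene outside the list, rose by 1.01 ± 0.18 in monuron cells, against a difference of -1.12 in DMSO cells (-1.25 without replicate 3). The 2 members that fell, Copz1 (-0.29) and the cargo receptor gene Tmed10 (-0.14), were not called when arrays were centred on their medians. Tmed10 was also not called without 24 h replicate 3 or without 72 h replicate 2, and Copz1 not without 24 h replicate 2.

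**Figure D4:**
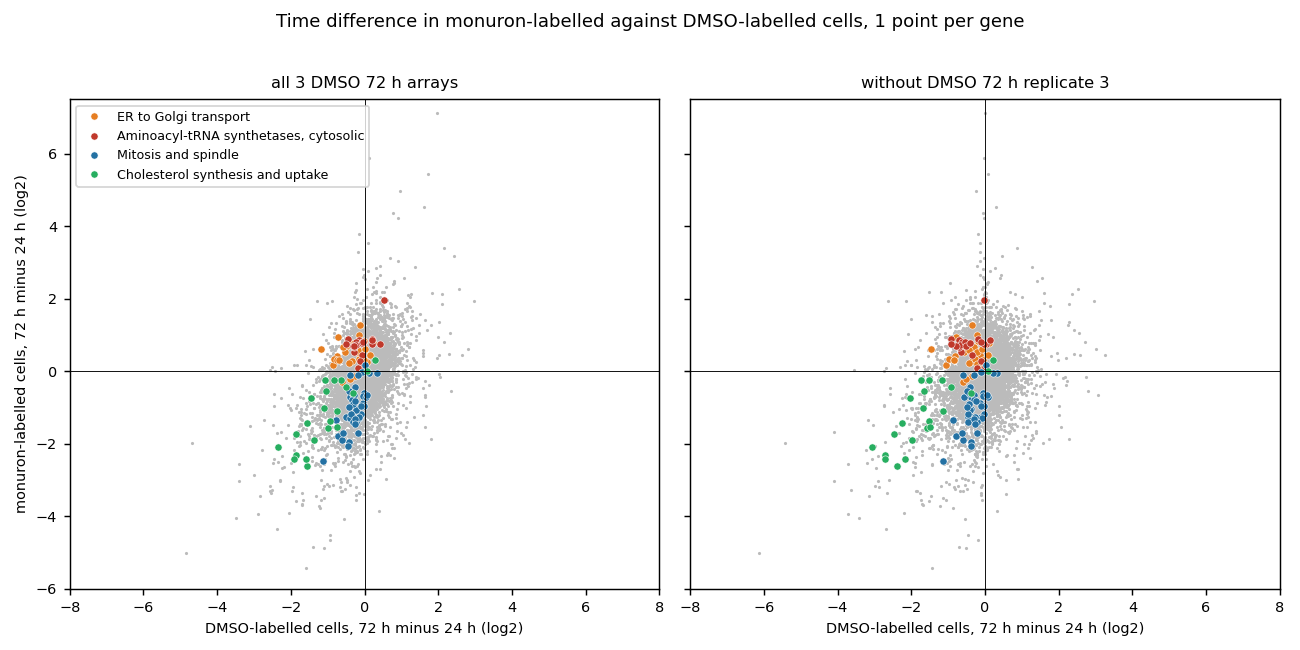
The 72 h minus 24 h difference of each tested gene (log2), in monuron cells on the y axis and in DMSO cells on the x axis, with all 3 DMSO 72 h arrays at left and without replicate 3 at right, and with 4 lists in colour. ER to Golgi genes lie mostly in the upper left part, tRNA synthetases above the horizontal line and to the left of the vertical one at right, mitotic genes below the line near the middle, and cholesterol genes in the lower left.

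Genes that build ribosomes rose as broadly, while the ribosomal proteins moved little. Of 50 tested ribosome biogenesis genes and MYC targets, 41 rose and 1 fell (median 0.69), and 9 rose at least 2-fold. Srm, the spermidine synthase gene, measured 11.15, 11.44 and 11.80 at 72 h, against 9.28, 9.20 and 9.19 at 24 h, a 4.72-fold rise (2.24 ± 0.13, adjusted p = 4.14e-07). It had measured 10.45, 10.33 and 10.35 at 6 h, so that the level dipped at 24 h. The processing factor gene Rrp12 measured 8.35, 8.48 and 9.02 at 72 h, against 6.62, 6.70 and 6.56 at 24 h (1.99 ± 0.16), against 8.93, 8.75 and 8.68 at 6 h. Polr1b, a subunit of RNA polymerase I, rose by 1.58 ± 0.13 and the nucleolar GTPase gene Gnl3 by 1.26 ± 0.10. Over the list, 45 of 50 genes had a lower mean at 24 h than at 6 h (median -0.72), against 4594 of all 9042 genes (median -0.01), differences that were not tested. Myc itself did not pass the test (-0.26 ± 0.11, adjusted p = 0.0552), and Polr1d, shared by RNA polymerases I and III, fell (-0.53 ± 0.07).

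In DMSO cells 4 ribosome biogenesis genes rose and 8 fell, against 5 and 9 without replicate 3, and the interaction was called upward in 37 of 50 and downward in 2, against 39 and 2. The mean level of the list on the DMSO 72 h arrays, 9.42, 9.40 and 9.58, stayed near the 24 h values of 9.50, 9.53 and 9.44. By contrast 27 of 39 tested cytosolic ribosomal protein genes rose and 1 fell in monuron cells (median 0.14), and 28 rose and none fell in DMSO cells (median 0.15), with 23 rises without replicate 3. The interaction was called downward in 1 of these 39 genes and upward in none, against 2 and 1 without replicate 3. The 1 called with all arrays was Rpl11, which fell in monuron cells (-0.21), a call that was lost when arrays were centred on their medians. Of 67 mitochondrial ribosomal protein genes 23 rose and 14 fell (median 0.07).

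Mitotic genes fell, having already been lower at 24 h than at 6 h. Of 46 tested members, 40 fell and 1 rose at 72 h against 24 h (median -1.02), and 23 fell at least 2-fold. All 46 had a lower mean at 24 h than at 6 h in monuron cells, with a median of -1.32, again untested. Mki67, the gene of the proliferation antigen Ki-67, measured 10.18, 10.10 and 9.61 at 72 h, against 11.31, 11.20 and 11.24 at 24 h, after 12.52, 12.44 and 12.26 at 6 h. Its difference was -1.29 ± 0.13 (adjusted p = 1.05e-05). Cenpe, a kinetochore motor gene, measured 4.78, 4.13 and 3.25 at 72 h, against 6.52, 6.39 and 6.74 at 24 h (-2.49 ± 0.30), with replicate 3 at 72 h below the array median, and its difference with dim values set to that median was -2.25.

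The mitotic kinase gene Plk1, whose promoter is shown above, measured 6.61, 6.81 and 5.42 at 72 h, against 8.13, 8.01 and 8.07 at 24 h (-1.79 ± 0.28, adjusted p = 1.98e-04). Cenpf, a kinetochore protein gene, measured 9.05, 8.69 and 7.66 at 72 h, against 10.22, 10.09 and 10.18 at 24 h (-1.70 ± 0.26). Ccnb1 for cyclin B1 fell (-1.34), as did the spindle checkpoint gene Bub1b (-1.28), the motor gene Kif20a (-2.06) and the anaphase activator gene Cdc20 (-1.26). Replicate 3 was the lowest 72 h array for Mki67, Cenpe, Plk1 and Cenpf. The mean of the list was 8.77, 8.67 and 7.87 on the 72 h arrays, against 9.53, 9.41 and 9.43 at 24 h, so the 2 other late arrays also lay below every 24 h array. Some members moved little, among them Cdk1 (-0.05), Cenpa (-0.01) and Bub3 (-0.06), which did not pass the test, and Cks2 rose by 0.17, a call lost in 5 of the alternatives, including without either 24 h replicate 1, 24 h replicate 2 or 72 h replicate 2.

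In DMSO cells 3 of the 46 mitotic genes fell and 1 rose, against 7 and 1 without replicate 3, and the interaction was called downward in 26 (23 without it) and upward in none. Of 49 genes of DNA replication tested, 23 fell and 5 rose (median -0.26), whereas in DMSO cells 22 fell and none rose (median -0.40), against 23 and 2 without replicate 3. The interaction was called upward in 5 and downward in 4, against 9 and 5 without that array. Of these genes, too, 48 of 49 had a lower mean at 24 h than at 6 h (median -1.52), against 4594 of all 9042 genes (median -0.01). The thymidine kinase gene Tk1 fell most and measured 7.06, 6.92 and 4.51 at 72 h, against 9.32, 9.42 and 9.30 at 24 h (-3.18 ± 0.51), with replicate 3 far below the others. Cdt1, of origin licensing, fell (-1.02), as did the helicase subunit gene Mcm7 (-1.16) and Ccne1 for cyclin E1 (-0.76).

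The 5 members of the replication list that rose, against 10 when arrays were centred on their medians, were Ung, Pcna, Pold2, Rpa2 and Fen1. Ung, the uracil-DNA glycosylase gene, measured 8.92, 9.05 and 9.45 at 72 h, against 7.49, 7.33 and 7.27 at 24 h (1.78 ± 0.13, adjusted p = 1.55e-06), and Pcna for the sliding clamp measured 12.91, 12.88 and 12.83 at 72 h, against 12.52, 12.50 and 12.54 at 24 h (0.35 ± 0.05). Pold2, Rpa2 and Fen1 rose by 0.60, 0.48 and 0.44. Polh, the gene of the translesion polymerase eta and no member of the list, measured 8.07, 8.72 and 9.30 at 72 h, against 6.26, 5.82 and 6.61 at 24 h (2.47 ± 0.29). Of 12 tested p53 targets 7 rose and 4 fell (median 0.37). The apoptosis-enhancing nuclease gene Aen measured 9.22, 9.12 and 8.97 at 72 h, against 7.71, 7.41 and 7.53 at 24 h (1.55 ± 0.12, adjusted p = 1.40e-06), Zmat3 rose by 1.06 ± 0.11 and Mdm2, the p53 ubiquitin ligase gene, by 0.92 ± 0.15. The cell cycle inhibitor gene Cdkn1a rose by only 0.36 ± 0.10, a call that was lost in the fit of all 18 cell arrays and with the mean of its probe sets. Sesn1 fell (-2.20 ± 0.47), as did the cyclin gene Ccng2 (-0.55 ± 0.07), which rose in DMSO cells (0.60, or 0.64 without replicate 3).

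Cholesterol synthesis genes fell in both labels, but unevenly over the DMSO arrays. Of 22 tested genes of the mevalonate and sterol pathway and its uptake receptors, 18 fell and none rose in monuron cells (median -1.24), with 13 falling at least 2-fold. In DMSO cells 14 fell and none rose (median -1.05), and 19 fell without replicate 3 (median -1.66). The mean level of the list was 9.8, 9.82 and 9.58 on the monuron 72 h arrays, against 10.91, 10.93 and 10.94 at 24 h. On the DMSO arrays it was 8.93, 10.11 and 11.18 at 72 h, against 11.17, 11.16 and 11.18 at 24 h. On replicate 3 the list thus stayed at its 24 h level. Idi1, the isopentenyl diphosphate isomerase gene, measured 11.83, 11.85 and 11.58 at 72 h, against 13.08, 13.31 and 13.19 at 24 h (-1.44 ± 0.10, adjusted p = 7.95e-07), after 12.00, 11.84 and 12.16 at 6 h. In DMSO cells Idi1 measured 10.22, 12.33 and 13.39 at 72 h, against 13.49, 13.57 and 13.53 at 24 h, where the 3 late arrays span more than 3 log2 units and replicate 3 lies close to the 24 h arrays.

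The phosphomevalonate kinase gene Pmvk measured 9.76, 9.85 and 9.82 at 72 h, against 11.33, 11.38 and 11.42 at 24 h (-1.57 ± 0.09, adjusted p = 2.52e-07). Ebp, a sterol isomerase gene, fell (-2.43), as did Mvd (-2.32), Tm7sf2 (-2.61) and the farnesyl diphosphate synthase gene Fdps (-1.02). Sqle for squalene epoxidase (-0.74) and Cyp51 (-0.54) fell less and were not called in the fit of all 18 cell arrays, and Insig1, the retention protein of the SREBP pathway, did not pass the test (-0.23). The list had stood higher at 24 h than at 6 h in 21 of 22 members (median 1.71), against a median of -0.01 over all genes. No member's change over time was called different between the labels with all arrays, where the DMSO 72 h arrays were widely spread. Without replicate 3, 6 differed upward.

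Fatty acid synthesis also fell in both labels, with 16 of 21 tested genes falling and 4 rising (median -0.67). The lipin gene Lpin1 measured 7.06, 7.05 and 6.97 at 72 h, against 8.76, 8.85 and 9.01 at 24 h (-1.85 ± 0.11). Fasn for fatty acid synthase measured 9.92, 9.83 and 9.84 at 72 h, against 11.06, 11.10 and 11 at 24 h (-1.19 ± 0.09), Elovl6, an elongase gene, fell (-2.10), as did the desaturase genes Fads2 (-2.16) and Scd2 (-0.81). Acsl1 (0.66), Dgat2 (0.44) and Dgat1 (0.38), which activate fatty acids and close triglyceride synthesis, rose. In DMSO cells 10 fell and none rose, against 15 and none without replicate 3. The interaction was called upward in 2 and downward in none, against 9 and none without that array. The mean level of the list on the DMSO 72 h arrays was 9.12, 9.52 and 10.41, against 10.43, 10.44 and 10.35 at 24 h. Replicate 3 thus stayed at the 24 h level.

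Genes of fatty acid oxidation fell in monuron cells and mostly not in DMSO cells. Of 21 tested members, 15 fell and 3 rose (median -0.66), against 4 that fell and 2 that rose in DMSO cells (4 and 4 without replicate 3), and the interaction was called downward in 13 and upward in 1 (13 and 2 without it). Cpt1a, which controls entry of fatty acids into mitochondria, measured 10.40, 10.26 and 10.02 at 72 h, against 11.69, 11.61 and 11.59 at 24 h (-1.40 ± 0.09, adjusted p = 5.86e-07). In DMSO cells it measured 12.68, 11.82 and 10.80 at 72 h, against 11.70, 11.69 and 11.70 at 24 h, with the 3 late arrays on both sides of the earlier ones. Acaa2, a thiolase gene, fell (-1.35), as did Cpt2 (-0.90) and the dienoyl-CoA reductase gene Decr1 (-0.87). Acot2, a mitochondrial thioesterase gene, rose (1.44 ± 0.11), as did Hadhb (0.57), although Hadha, which encodes its partner subunit, did not pass the test (0.02).

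The iron list held a few large changes. Of 14 tested iron genes, 5 rose and 4 fell (median 0.07). Tfrc, the transferrin receptor gene through which cells take up iron, measured 8.0, 8.44 and 8.04 at 72 h, against 11.28, 11.10 and 11.32 at 24 h, after 12.70, 12.73 and 12.72 at 6 h (-3.07 ± 0.11, adjusted p = 1.91e-08). In DMSO cells Tfrc measured 12.11, 11.25 and 13.42 at 72 h, against 12.61, 12.66 and 12.98 at 24 h, and the change over time differed by -2.59 (adjusted p = 6.60e-04), or -2.01 without replicate 3. The late monuron arrays lay below every other array of the cell line. The iron regulatory protein gene Aco1 fell (-0.83), as did the exporter gene Slc40a1 (-0.99). Slc25a37, the mitochondrial iron importer gene mitoferrin, measured 6.74, 6.85 and 8.31 at 72 h, against 4.60, 4.79 and 4.57 at 24 h (2.65 ± 0.34). The ferroxidase gene Heph measured 6.80, 6.00 and 5.99 at 72 h, against 3.88, 3.82 and 3.65 at 24 h (2.48 ± 0.23 as measured). Heph was thus dim at 24 h, and the size of its rise is uncertain. Hmox1, which encodes the haem-degrading enzyme, rose by 1.51 ± 0.23 and the importer gene Slc39a14 by 1.17 ± 0.12.

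Several BMP targets and ligands fell. Of 28 tested members of TGF-beta and BMP signalling, 16 fell and 4 rose (median -0.59), against 5 that fell and 4 that rose in DMSO cells (6 and 6 without replicate 3). The interaction was called downward in 11 and upward in 5 (12 and 5 without it). Id1, a BMP target that blocks basic helix-loop-helix factors, measured 12.06, 12.05 and 12.10 at 72 h, against 13.01, 13.14 and 13.25 at 24 h (-1.07 ± 0.06, adjusted p = 3.38e-07). Id3 measured 13.02, 12.85 and 12.23 at 72 h, against 13.98, 14.09 and 14.23 at 24 h (-1.40 ± 0.16), Id2 fell (-1.30), as did the inhibitory SMAD gene Smad7 (-1.09). The ligand genes Bmp6 (-1.15) and Bmp4 (-0.98) fell, as did Ltbp1 (-0.97), which encodes a protein that binds latent TGF-beta. The receptor gene Tgfbr1 (0.95), Smad4 (0.75) and the BMP antagonist gene Nog (1.20) rose.

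Of 38 tested collagens and matrix genes, 19 fell and 6 rose (median -0.19), against 3 that fell and 8 that rose in DMSO cells (6 and 13 without replicate 3). The interaction was called downward in 14 and upward in 2 (19 and 3 without it). Col14a1, a fibril-associated collagen gene, measured 2.30, 3.78 and 2.27 at 72 h, against 8.25, 8.11 and 8.27 at 24 h, falling below the array median. With dim values set to that median the difference was -4.17 (as measured -5.43 ± 0.32, adjusted p = 4.15e-07). In DMSO cells Col14a1 stayed bright, with 9.30, 8.66 and 8.51 at 72 h, against 10.35, 10.42 and 10.45 at 24 h. Col1a1 measured 6.44, 6.23 and 6.58 at 72 h, against 8.23, 8.30 and 8.41 at 24 h (-1.90 ± 0.13), Postn for periostin 10.43, 10.69 and 10.59 at 72 h, against 11.88, 11.95 and 11.94 at 24 h (-1.36 ± 0.07), and the matricellular gene Ccn5 2.44, 2.04 and 2.78 at 72 h, against 6.82, 6.36 and 6.37 at 24 h, again dim at 72 h, with a difference of -2.48 once dim values were set to the array median. Ccn4 rose (1.00 ± 0.07).

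Fibroblast markers, of which 7 were tested, did not move one way, and 4 of the 7 are also in the matrix list (Col1a1, Col1a2, Col3a1 and Postn). Of the 7, 3 rose (Twist1, Acta2 and Col1a2) and 4 fell (S100a4, Col1a1, Postn and Col3a1, the last not called in the fit of all 18 cell arrays), and the summed level of the 12 markers was 77.2 to 78.5 at 72 h, against 81.6 to 82.3 at 24 h. Pdgfra, Dcn, Lum and Thy1 lay below the array median on all 6 arrays. Their part in the result was not tested. S100a4, a calcium-binding protein gene, measured 8.03, 7.77 and 6.30 at 72 h, against 10.40, 10.73 and 10.73 at 24 h (-3.25 ± 0.34). Of 14 tested junction and keratin genes 10 fell and 3 rose (median -0.45), with Krt8 measuring 11.72, 11.85 and 11.46 at 72 h, against 13.41, 13.49 and 13.50 at 24 h (-1.79 ± 0.09) and Twist1, a mesenchymal transcription factor gene, 6.86, 6.84 and 7.38 at 72 h, against 5.46, 5.61 and 4.94 at 24 h (1.69 ± 0.22). Contractile and actin-binding genes split evenly, 11 up and 11 down of 29, and the myosin light chain gene Myl9, dim at 24 h, measured 6.52, 6.61 and 6.97 at 72 h, against 3.44, 3.7 and 3.10 at 24 h, after 6.60, 5.91 and 5.91 at 6 h.

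Growth factors and their receptors included several large falls, with 9 of 21 tested members falling, 8 of them at least 2-fold, and 6 rising. Areg for amphiregulin measured 3.77, 4.77 and 4.04 at 72 h, against 7.61, 7.86 and 7.78 at 24 h (-3.56 ± 0.23, adjusted p = 5.82e-07). The cytokine gene Ctf1 measured 2.86, 3.75 and 2.87 at 72 h, against 6.99, 7.04 and 6.76 at 24 h (-3.77 ± 0.23). Areg and Ctf1 were thus dim or nearly so at 72 h. With dim values set to the array median the difference of Ctf1 was -2.89. Egfr, the receptor gene for amphiregulin, fell (-1.24), as did Fgfr3 (-1.21) and the kit ligand gene Kitlg (-1.87). Kitlg measured 11.01, 9.61 and 8.90 on the DMSO 72 h arrays, above all 3 DMSO arrays at 24 h (8.0, 8.10 and 8.0). Vegfa, which encodes an angiogenic growth factor and is also a hypoxia target, measured 11.12, 11.34 and 11.41 at 72 h, against 9.98, 9.88 and 9.89 at 24 h (1.37 ± 0.09), and Tgfa rose by 1.24.

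Lists that did not move one way still held large single changes. Glycolysis and hypoxia genes divided into 12 that rose and 14 that fell of 30. The hexokinase gene Hk2 measured 7.42, 7.53 and 7.79 at 72 h, against 5.55, 5.59 and 5.84 at 24 h (1.92 ± 0.35) and the phosphofructokinase gene Pfkp rose by 1.15, whereas the aldolase gene Aldoc measured 4.46, 5.79 and 4.61 at 72 h, against 8.02, 8.21 and 8.20 at 24 h (-3.19 ± 0.32) and Eno1 for enolase 11.97, 11.97 and 11.83 at 72 h, against 12.99, 13.06 and 13.11 at 24 h (-1.13 ± 0.05). In DMSO cells none rose and 8 fell, against 20 without replicate 3.

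Targets of the antioxidant factor NRF2 divided into 11 that rose and 13 that fell of 28. Srxn1 for sulfiredoxin measured 11.29, 11.23 and 11.67 at 72 h, against 9.84, 9.59 and 9.65 at 24 h (1.70 ± 0.11) and Gclm, of glutathione synthesis, 11.74, 11.93 and 12.31 at 72 h, against 11.02, 10.91 and 10.65 at 24 h (1.13 ± 0.13), while the glutathione peroxidase gene Gpx1 measured 11.50, 11.37 and 11.53 at 72 h, against 13.33, 13.42 and 13.46 at 24 h (-1.93 ± 0.06, adjusted p = 1.07e-08). Nqo1, a quinone reductase gene, fell by 0.35 but was not called in the fit of all 18 cell arrays. Of 21 glutathione and glucuronosyl transferases and related enzymes, 10 fell and 5 rose (median -0.47). Mgst3 measured 5.03, 4.55 and 3.64 at 72 h, against 7.66, 7.51 and 7.37 at 24 h (-3.11 ± 0.30), with the lowest 72 h value dim. Gstm1 fell by 1.05, and Gsta1 rose (1.52 ± 0.10) as did the epoxide hydrolase gene Ephx1 (1.12 ± 0.09).

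Cyp1a1, the classic target of the aryl hydrocarbon receptor, was bright only at 24 h in monuron cells. It measured 2.62, 2.60 and 2.64 at 72 h, against 6.43, 6.53 and 6.47 at 24 h, and 2.97, 2.95 and 3.12 at 6 h (-3.85 ± 0.16, adjusted p = 4.02e-08). The difference was -2.43 with dim values set to the array median. In DMSO cells it measured 2.90, 4.51 and 3.94 at 72 h, against 3.79, 3.39 and 2.98 at 24 h, where the levels were mostly dim. The change over time differed by -2.55 with dim values set to the array median. As measured it differed by -4.25 (adjusted p = 9.16e-05), or -4.17 without DMSO 72 h replicate 3. Of 7 tested members of the receptor's list none rose and 2 fell, and the receptor gene Ahr did not pass the test (-0.89).

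Interferon-stimulated genes also divided, 9 up and 10 down of 22. Psmb8, of the immunoproteasome, measured 8.34, 9.16 and 8.78 at 72 h, against 5.82, 6.00 and 5.84 at 24 h (2.88 ± 0.21) and Isg20 9.66, 9.95 and 10.19 at 72 h, against 7.98, 8.16 and 8.15 at 24 h (1.84 ± 0.14), whereas Mx2 fell (-2.68), as did Usp18 (-2.25) and Rtp4 (-2.19). Of 40 tested proteasome subunits 10 rose and 12 fell (median -0.03), while in DMSO cells 22 of 40 fell and 2 rose with all arrays and also without replicate 3. Clock genes leaned upward, with 9 of 15 rising and 3 falling (median 0.44). Cry1, a repressor gene, measured 9.63, 9.73 and 10.20 at 72 h, against 7.61, 7.70 and 7.77 at 24 h (2.17 ± 0.16, adjusted p = 1.23e-06) and Per2 rose by 1.77 ± 0.24, while Tef, an output factor gene, measured 6.09, 5.76 and 4.45 at 72 h, against 8.46, 8.48 and 8.50 at 24 h (-3.05 ± 0.32) and Dbp fell by 0.81. Of 41 lysosome and autophagy genes 20 rose and 6 fell (median 0.22). Gla, the alpha-galactosidase gene, went against that list and measured 8.76, 8.52 and 8.15 at 72 h, against 10.83, 10.75 and 10.74 at 24 h (-2.30 ± 0.14, adjusted p = 4.42e-07).

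The remaining lists had medians between -0.23 and 0.18. Of 21 heat shock genes 10 rose and 5 fell (median 0.18), of 29 immediate early transcription factors 12 rose and 7 fell (median 0.18), and of 21 apoptosis regulators 8 rose and 7 fell (median -0.04). Of 14 NF-kB targets and cytokines 5 rose and 6 fell (median -0.23), of 10 tubule injury markers 4 rose and 3 fell (median -0.01), and of 12 drug and organic ion transporters 5 rose and 6 fell (median 0.04). Respiratory chain and ATP synthase subunits leaned downward by small amounts, with 22 of 49 falling, 10 rising and a median of -0.09.

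Some genes crossed the array median between the times. Of the 9042 tested genes, 41 were called and went from below the array median to above it. They lay below it on all 3 arrays at 24 h and above it on all 3 at 72 h. The reverse held for 71 called genes. A gene bright only on the monuron 72 h arrays met the filter for testing through those arrays alone. Cox6a2, the muscle isoform of a cytochrome c oxidase subunit, measured 8.68, 8.87 and 8.99 at 72 h, against 1.75, 1.73 and 1.71 at 24 h, a difference of 4.71 with dim values set to the array median (adjusted p as measured 1.02e-09). Tppp, a tubulin-binding protein gene, measured 7.42, 7.78 and 8.35 at 72 h, against 2.42, 2.34 and 2.52 at 24 h and the collagen receptor gene Ddr2 7.92, 7.88 and 7.75 at 72 h, against 3.58, 3.96 and 3.31 at 24 h. The actin-binding gene Avil measured 7.34, 8.01 and 8.05 at 72 h, against 3.00, 3.02 and 2.45 at 24 h. Among genes that became dim, Fam180a measured 3.49, 3.45 and 3.55 at 72 h, against 8.45, 8.24 and 7.83 at 24 h and the sulphotransferase gene Chst4 3.61, 2.76 and 3.24 at 72 h, against 7.44, 7.44 and 6.90 at 24 h. Of the 41 genes that became bright, the DMSO 72 h arrays had 4, 3 and 10 above the array median in replicates 1, 2 and 3. Replicate 3 held Cox6a2 (1.72, 1.72 and 7.68 on the 3 DMSO arrays), Tppp (2.49, 2.29 and 7.39), Ddr2 (3.09, 3.12 and 5.95) and Avil (2.41, 2.42 and 5.99), where the other 2 DMSO arrays were dim. Of the 71 genes that became dim, 29, 22 and 27 were below the median in the 3 DMSO arrays. Both sets were chosen on the monuron arrays, so fewer crossings on the DMSO arrays follow in part from that choice.

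Of genes bright at both times, Arg2 for mitochondrial arginase had the largest rise and measured 11.06, 11.03 and 11.04 at 72 h, against 7.71, 7.48 and 7.73 at 24 h, after 3.52, 3.09 and 3.41 at 6 h (3.41 ± 0.14, a 10.6-fold rise, adjusted p = 4.02e-08). Ifi27l2b, of the interferon-inducible ISG12 family, measured 14.51, 14.78 and 14.81 at 72 h, against 11.55, 11.46 and 11.52 at 24 h (3.19 ± 0.12). Both also stood high on DMSO 72 h replicate 3, with 4.78, 6.35 and 9.39 for Arg2 and 6.78, 9.31 and 13.91 for Ifi27l2b on the 3 DMSO arrays. The transcription factor gene Runx1 rose by 2.18 ± 0.17. The largest fall was that of Sema3a, a secreted guidance protein gene, which measured 4.96, 4.33 and 4.16 at 72 h, against 9.04, 9.23 and 9.77 at 24 h (-4.86 ± 0.35, adjusted p = 1.13e-06). Calml4, of the calmodulin-like proteins, fell (-3.72), as did Asb12 (-4.35) and the hyaluronan-binding protein gene Tnfaip6 (-3.45). Tnfaip6 lay only just above the array median on all 3 arrays at 72 h, and Sema3a and Asb12 came near it on part of them. All of these arrays count as bright, but the sizes of the falls of Sema3a, Asb12 and Tnfaip6 are uncertain. That the 3 arrays at 72 h did not overlap with the 3 at 24 h was a condition for naming the genes of this paragraph.

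The calls of monuron and DMSO cells were set side by side over all genes. The 2 contrasts have no array in common, but the DMSO calls came from a fit whose spread was drawn from all 18 cell arrays, in which 5484 genes were called in monuron cells, against 5895 in the fit of the monuron arrays. In both, 609 genes rose and 937 fell, 159 rose in monuron and fell in DMSO cells, and 122 fell in monuron and rose in DMSO cells. Without DMSO 72 h replicate 3 these counts were 577, 1040, 485 and 276. There were 2031 genes that rose and 2037 that fell in monuron cells without a call in DMSO cells, of which 1160 and 1204 passed the test of the difference itself. Without that array they were 1737 and 1780, of which 1183 and 1211 passed it. Genes that rose in both included the transcription factor gene Klf15, with 1.93 in monuron cells and 2.98 in DMSO cells (2.95 without replicate 3), and the adhesion gene Icam1, with 1.14 in monuron cells and 1.19 in DMSO cells (1.32). Those that fell in both included the scaffold gene Akap12, with -1.70 in monuron cells and -1.46 in DMSO cells (-1.42), and the lamin gene Lmna, with -0.85 in monuron cells and -0.94 in DMSO cells (-0.85). Opposite calls were made for the angiogenic factor gene Vegfc, with -0.79 in monuron cells and 0.61 in DMSO cells (0.70), and for Lingo1, with -1.54 in monuron cells and 1.65 in DMSO cells (2.05).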

How the data were processed

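RNA of NRK-52E cells was hybridised to Affymetrix rat arrays, and the deposited log2 values are GCRMA expression values that the authors computed, per the submitters' processing notes. GCRMA corrects background by probe sequence and normalizes quantiles across arrays. It does not make levels of different genes comparable. Of 31099 probe sets, 57 were controls, 20826 named 1 gene, 436 named several and 9780 named none, and the last 2 kinds were left out. Each of 14217 genes was read from 1 probe set, the one of highest average level in the 18 cell arrays. Genes above their own array's median on at least 3 arrays were tested (9042).

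The 72 h minus 24 h contrast was fitted in limma 3.58.1 (R 4.3.3; lmFit and eBayes with a trend, two-sided, Benjamini-Hochberg adjustment over all 9042 genes) on the 9 monuron cell arrays. The DMSO contrast and the difference between both were fitted on all 18. Settings were tested on simulated data. For genes dim at 1 time, values under the array median were also set to it.

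The 36 gene lists, the 7 marker lists, the motifs and the named genes were chosen with earlier results of these data known. Named genes were the largest called differences in each direction, the largest switched genes, the members of each list with the smallest adjusted p, and the genes with the smallest adjusted p for a change, in the same or the opposite direction, against DMSO. Further list members were taken as examples after their values were seen. Promoters are from members that hold the motif, starting with the largest differences. Alternatives were another filter, scaling, probe set rule, set of arrays or trend, a replicate block and leaving out each array.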

Additional observations from a re-analysis of the deposited data

Results flagged for a closer look

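The 72 h minus 24 h difference itself differed between monuron and DMSO cells in 3423 genes, with 1655 higher and 1768 lower in monuron cells, by limma's interaction contrast (adjusted p under 0.05). The genes below were singled out by the smallest adjusted p for that difference, or because they were called in opposite directions in both labels. Each value is the difference between the changes (log2, monuron minus DMSO), followed by the value without DMSO 72 h replicate 3, and all were called in the same direction without that array. For genes that were dim in some groups, the difference with dim values set to the array median is given too, where it is smaller by over 1.5 times.

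Among genes with a higher change in monuron cells, the stress hormone gene Fgf21 differed by 5.76 (5.90 without it), the ER-shaping protein gene Reep6, dim in all other groups than monuron 72 h, by 3.95 (3.98, and 1.82 with dim values set to the median), the RNA helicase gene Ddx39a by 1.49 (1.49) and the translation initiation factor gene Eif3b by 1.12 (1.09). Fgf21 and Reep6 exceeded the array median on the monuron 72 h arrays alone and met the filter for testing through them. Genes of the secretory route were Sar1a with 1.68 (1.74), Sec13 with 1.18 (1.25), Tmed2 with 0.72 (0.75), Gosr2 with 1.27 (1.32), Golt1b with 2.14 (2.26) and Copa with 0.60 (0.63). The proteasome ATPase gene Psmc4 differed by 0.76 (0.81), although its rise in monuron cells was not called with the mean of its probe sets.

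Among genes with a lower change in monuron cells, the lysosomal enzyme gene Gla differed by -2.02 (-2.03 without it), the matricellular gene Ccn5, dim at monuron 72 h, by -3.54 (-3.57, and -1.93 with dim values set to the median), Mbd5 by -3.01 (-3.22), Abhd14b by -1.58 (-1.64), the integrin gene Itga6 by -1.15 (-1.14) and C2h4orf3 by -1.15 (-1.21). Genes that fell in monuron cells and rose in DMSO cells were the cyclin gene Ccng2 with -1.14 (-1.19), C1qtnf1 with -2.62 (-2.42), Zfp62 with -1.14 (-1.11), Lingo1 with -3.19 (-3.59), Vegfc with -1.40 (-1.49) and Gpr146 with -2.80 (-3.22). Gpr146 was dim on all 3 monuron 72 h arrays, and with dim values set to the median its difference was -1.64 and its change in monuron cells was -0.31.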

How the results depend on the processing

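No count over all genes moved by more than 1.5 times under any alternative, and all 235 genes examined one by one kept their direction, 213 of them with the same call throughout. Only genes called in the main fit were examined, many chosen for large differences or small adjusted p, so they do not stand for all genes. The number called in monuron cells was 5895, against 5484 with all 18 cell arrays, 5654 with the 6 arrays alone, 5609 with the mean of all probe sets and 5267 to 5939 when 1 array was left out. With the mean of all probe sets, 5305 of the 5826 called genes still tested kept their call and 16 had the opposite call. Centring arrays on their medians moved the median of all genes to 0.066 and the share of rises among calls to 56%, against 47.5%. Leaving out 1 array gave 1735 to 3403 calls in DMSO cells and 2777 to 4411 for the difference between both labels, and the highest of each was without DMSO 72 h replicate 3. The labels number replicates alike in all groups, but same-numbered arrays at 72 h and 24 h deviated with r of -0.145, 0.033 and -0.092, so the numbers do not pair them in that contrast, and the replicate block gave 5786 calls. Between monuron and DMSO cells same-numbered arrays deviated together at 72 h (0.205, 0.167 and 0.317) but not throughout at 24 h (-0.116, -0.116 and 0.128). Arrays of unlike number ranged from -0.328 to 0.275 at 72 h and from -0.298 to 0.4 at 24 h. The replicate block gave 3390 calls for the difference between labels, against 3423. For the lists examined, 20 counts under the alternatives moved by more than 1.5 times, or to or from none, and 428 did not. Examples follow, with the reported count in brackets. Rises numbered 7 for amino acid synthesis (11) and 5 for transporters (8) with all 18 arrays. They numbered 10 for replication (5) and 12 for collagens (6) with centred arrays, and 8 for replication after quantile normalization. Precision is limited by 3 arrays a group, and dim probe sets give no reliable differences.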
